A study of Mus musculus with 26 samples.

Results

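Ribosome footprints of NIH3T3 cells after 7 h of oxidative stress (H2O2) were compared directly with footprints of the same cells after 7 h of osmotic stress (KCl). NIH3T3 is an established line of mouse embryonic fibroblasts. The comparison rests on 4 of the 26 libraries analysed in the series, which are the 2 footprint libraries of each 7 h treatment, and it covers every gene of the deposited footprint table, 19941 in all. The libraries were chosen by treatment, time and kind of library only, and the unstressed footprint libraries entered no test of the comparison as reported. Those 2 control libraries, the 4 polyA-selected RNA libraries of the same 7 h treatments and the 4 footprint libraries taken after 2 h of H2O2 or KCl are used beside it. All groups are wild-type NIH3T3 cells as far as the labels say, the sources used here give no concentration of H2O2 or KCl, and the labels do not say whether the 2 replicates of a group were separate cultures. The p-values therefore measure only the spread between these libraries, which may be technical.

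In ribosome profiling, the stretch of mRNA covered by a translating ribosome is protected from nuclease and sequenced, so the footprint count of a gene reflects both how much of its mRNA there is and how densely ribosomes occupy it. Hydrogen peroxide oxidises DNA, protein thiols and lipids, and is known for engaging p53, which controls cell cycle arrest and death genes, and NRF2, which controls antioxidant enzymes. Raised extracellular salt draws water out of the cell, and mammalian cells respond through the transcription factor NFAT5, which raises transporters and enzymes that fill the cytosol with compatible osmolytes such as sorbitol, betaine, taurine, inositol and neutral amino acids.

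The 4 footprint libraries held 2884344 to 3775978 expected counts each, and replicates correlated at r = 0.980 for H2O2 and 0.978 for KCl on log2(CPM + 1). CPM, counts scaled to a fixed library total of 1000000, is given after library sizes were scaled by the trimmed mean of M-values (TMM). All 10 fibroblast markers were detected, with a summed level of 13502 to 14402 CPM in the H2O2 libraries and 18252 to 22102 CPM in the KCl libraries, and 6 of the 10 were lower in H2O2 (median log2 fold change −0.72). The largest fall was that of Pdgfrb, a PDGF receptor, with 37.1 and 26.9 CPM in H2O2 and 253 and 143 CPM in KCl. Without KCl replicate 1, 2 of the 10 were called. The summed levels of 8 epithelial, 8 blood cell and 8 endothelial markers stayed between 8.49 and 59.9 CPM in the 4 libraries, with 5 of the blood cell and 3 of the endothelial markers at 0 in all of them. Csf1r, a macrophage growth factor receptor, had 53.8 and 38.8 CPM in KCl against 2 counts in the H2O2 group, a ratio of 160 (95% exact interval 43.8 to 1325). Cd68, which marks macrophage lysosomes, ran the other way, with 46.1 and 29.2 CPM in H2O2 and 3.81 and 2.59 CPM in KCl. The part of these marker differences in the results that follow was not tested, and fewer cells of a kind and less RNA per cell cannot be told apart in such bulk samples.

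With libraries scaled by TMM, which centres the differences near 0, about as many genes had more footprints in H2O2 as had fewer. Higher and lower thus mean relative to the other genes of a library, and total translation cannot be read from the counts. Of 10228 genes with enough counts, 4886 (47.8%) differed between the treatments at an adjusted p under 0.05 by edgeR's quasi-likelihood test with Benjamini-Hochberg adjustment over all tested genes, and such genes are referred to as called. H2O2 was higher for 2619 of them (25.6% of those tested) and lower for 2267 (22.2%), and 53.6% of the calls were thus on the H2O2 side. Footprint counts of the gene lists that follow are to be read against these 2 shares. Differences of at least 1 on the log2 scale were called for 3054 genes (29.9%), 1935 higher and 1119 lower in H2O2. Over all tested genes the median log2 fold change, H2O2 over KCl, was 0.02. On the authors' TPM values, tested as log2(TPM + 1) with limma, 4397 genes were called, of which 67.2% were higher in H2O2, and the median of all genes moved to 0.18. The number of calls leaned on the KCl replicates: 1905 genes were called without KCl replicate 1 and 2285 without KCl replicate 2, against 3879 and 3859 without H2O2 replicates 1 and 2. Each such fit has a single library in one group, which is assumed to vary like the others. For the same reason, the single genes and lists that follow are given with their value for a left-out library that ends a call or moves a count by over 1.5 times.

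**Figure D1:**
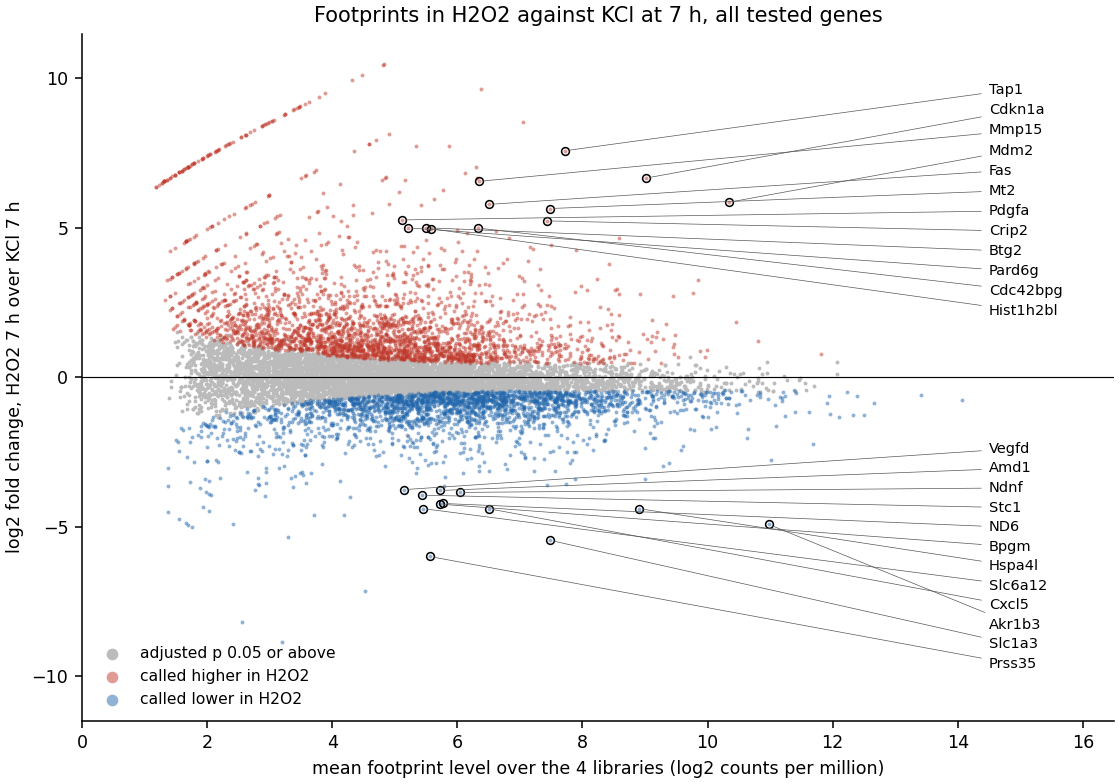
Each point is 1 tested gene, with its mean footprint level over the 4 libraries on the x axis (log2 CPM) and its log2 fold change, H2O2 over KCl, on the y axis. Red and blue points are the 2619 and 2267 called genes, the circled genes are the 12 with the largest differences in each direction above a mean of 20 CPM and with at least 10 counts in both groups, and the straight lines of red points at the upper left are genes with no or very few counts in KCl.

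Targets of p53 were the list most strongly on the H2O2 side, among 28 lists chosen with earlier results of these data known. Ranks and counts of lists are thus descriptions. Of 30 tested, 26 were called higher in H2O2 and none lower, with a median log2 fold change of 3.34 against 0.02 for all genes. Cdkn1a, which encodes the cyclin-dependent kinase inhibitor p21 (chr17:29090979-29100722, mm10), had 850.4 and 1200.3 CPM in the 2 H2O2 libraries and 11.8 and 8.62 CPM in the 2 KCl libraries, with 25.4 and 27.7 CPM in the controls. The groups were far apart, 101-fold (log2 6.66 ± 0.28 SE, edgeR adjusted p = 6.5e-09). Mdm2, the ubiquitin ligase that removes p53, had 1998 and 3094 CPM in H2O2 and 50 and 38.5 CPM in KCl, where it sat at the control level of 49.7 and 48.8 CPM (log2 5.85 ± 0.27, edgeR adjusted p = 7.2e-09). Fas, a death receptor, had 172 and 179.7 CPM in H2O2 and 5.34 and 1.44 CPM in KCl (log2 5.78 ± 0.34, edgeR adjusted p = 5.4e-08). Btg2, an antiproliferative factor, had 79.8 and 89.6 against 1.91 and 3.16 CPM, and Ccng1, which encodes cyclin G1, 185 and 191 against 7.63 and 5.17 CPM. In each of these genes both H2O2 libraries lay above both KCl libraries. The largest fitted rise was that of Cd80, a T cell costimulatory ligand, with 320 counts in the H2O2 group and 1 in the KCl group, a ratio of 277 whose 95% exact interval runs from 49.3 to 10958. Gdf15, a secreted stress hormone, had 175 counts against 3, a ratio of 50.4 (17.0 to 247), and its call was lost without KCl replicate 1 (edgeR adjusted p = 0.055). The 4 members not called were Ddb2 and Xpc, both of nucleotide excision repair, Sesn1 and Tigar, with log2 values of −0.32, 0.82, −0.28 and −0.22.

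Genes of apoptosis went the same way, and 5 of the list's members are also on the p53 list. The list holds both genes that promote and genes that restrain cell death, and its counts do not separate them. Of 22 tested, 12 were called higher in H2O2 and none lower (median 0.69). Apaf1, the core of the apoptosome, had 213 and 264 CPM in H2O2 and 50.7 and 63.5 CPM in KCl (log2 2.05 ± 0.21, edgeR adjusted p = 3.6e-06), and here both stresses were above the controls at 25.4 and 19.3 CPM. The p53-driven BH3 genes Bbc3 and Pmaip1 had log2 values of 3.35 ± 0.50 and 3.25 ± 0.28. Without KCl replicate 1 or without KCl replicate 2, 6 members were called in place of 12.

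Genes of the osmotic response lay on the KCl side. Of 18 tested, 14 were called lower in H2O2, that is higher in KCl, and 1 was called higher, with a median of −1.28. Akr1b3, the aldose reductase that makes sorbitol (chr6:34303930-34317489, mm10), had 3887 and 3903 CPM in KCl and 131 and 125 CPM in H2O2, and 263 and 149 CPM in the controls. The KCl libraries exceeded the H2O2 libraries 30.4-fold (log2 −4.93 ± 0.20, edgeR adjusted p = 6.5e-09). Slc6a12, the betaine transporter, had 110.2 and 60 CPM in KCl and 4.24 and 3.69 CPM in H2O2, with 0.249 and 0 CPM in the controls (log2 −4.40 ± 0.35, edgeR adjusted p = 4.5e-07). Hspa4l, an HSP110-family chaperone known from osmotically stressed kidney cells, had 877 and 947 against 46.1 and 40.3 CPM (log2 −4.40 ± 0.20, edgeR adjusted p = 7.2e-09). The footprints of Nfat5 itself were 419 and 554 CPM in KCl and 73.6 and 104 CPM in H2O2 (log2 −2.45 ± 0.22, edgeR adjusted p = 1.5e-06). Slc38a2, the neutral amino acid transporter SNAT2, reached 3948 and 3252 CPM in KCl against 475 and 575 CPM in H2O2, which was close to the controls at 586 and 661 CPM. The taurine transporter Slc6a6 and the inositol transporter Slc5a3 differed less, with log2 values of −1.76 ± 0.19 and −1.11 ± 0.18. All of these pairs of groups were separate. The exception to the direction was Pla2g6, a calcium-independent phospholipase, with 41.9 and 32.3 CPM in H2O2 and 15.6 and 10.6 CPM in KCl, and it was not called without KCl replicate 2 (edgeR adjusted p = 0.061).

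**Figure D2:**
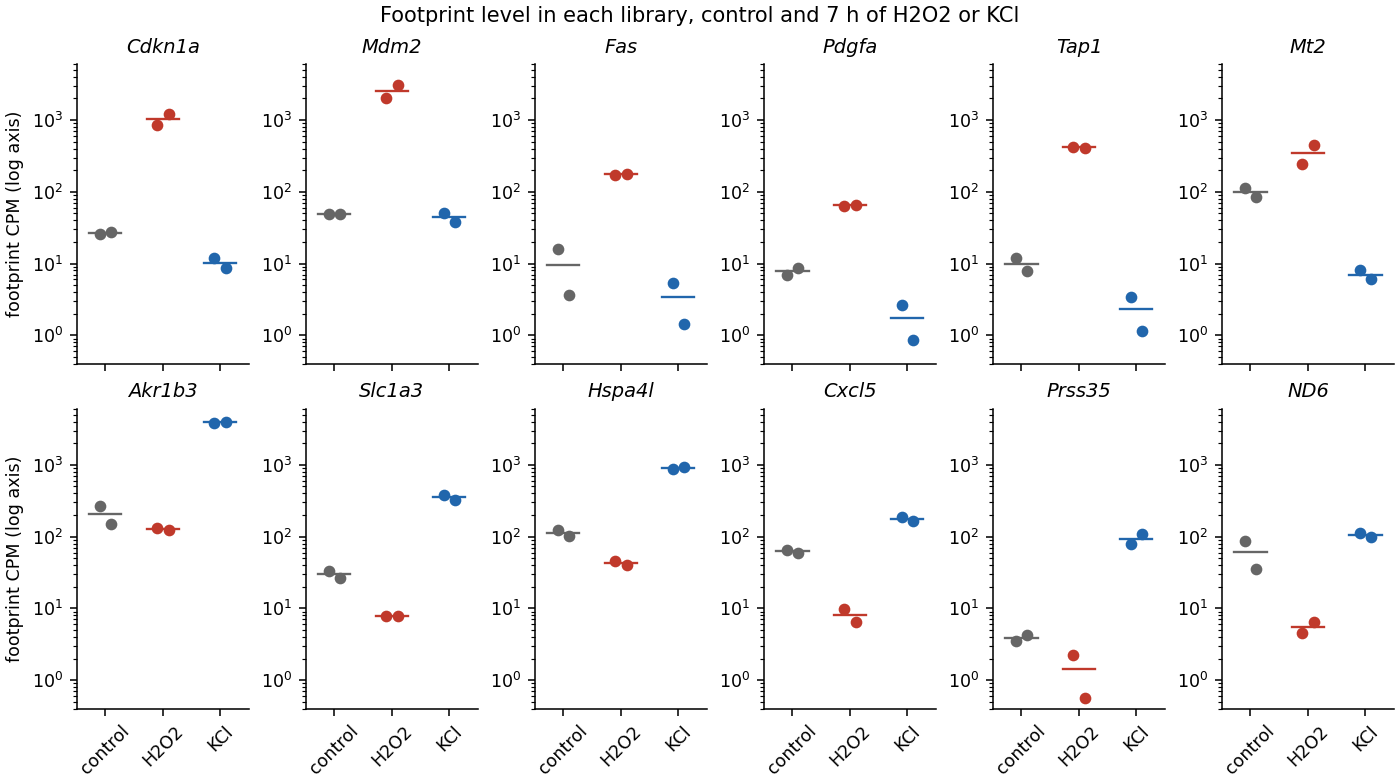
Footprint CPM on a log axis for 12 genes, 1 point per library and a bar for the mean of the 2 control, H2O2 7 h and KCl 7 h libraries. In the upper row both H2O2 points lie above both KCl points, in the lower row both lie below, and the control mean falls between the treatments in every panel, closest to H2O2 for Akr1b3 and closest to KCl for Mdm2.

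Amino acid transporters of the plasma membrane split by member, 9 higher and 5 lower in H2O2 of 17 tested. On the KCl side stood Slc1a3, a glutamate and aspartate carrier, with 376 and 327 CPM against 7.92 and 7.94 CPM in H2O2 (log2 −5.46 ± 0.24, edgeR adjusted p = 6.5e-09). On the H2O2 side stood Slc7a11, the cystine importer that feeds glutathione synthesis, with 66.2 and 77.7 CPM against 4.96 and 3.16 CPM (log2 4.17 ± 0.29, edgeR adjusted p = 1.8e-07), and the glutamine carrier Slc1a5, with 314 and 287 against 67.1 and 48.8 CPM (log2 2.38 ± 0.21). Of the 17, 4 are also on the list for ATF4, 2 on the osmotic list and 1, Slc7a11, on that for NRF2.

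Targets of NRF2 were divided, with 12 called higher and 4 called lower in H2O2 of 26 tested (median 0.47). Hmox1, the heme oxygenase, had 1051 and 1994 CPM in H2O2 and 198 and 232 CPM in KCl (log2 2.82 ± 0.27, edgeR adjusted p = 2.0e-06). Txnrd1, which reduces thioredoxin, had 758 and 975 against 257 and 356 CPM (log2 1.5 ± 0.21), and Nqo1, a quinone reductase, 46.7 and 55.9 against 19.4 and 25.9 CPM (log2 1.17 ± 0.23). These 3 genes were not called without KCl replicate 1, at edgeR adjusted p of 0.062, 0.056 and 0.067. Gclc and Gclm, the subunits of the enzyme that starts glutathione synthesis, had log2 values of −0.30 ± 0.19 and −0.29 ± 0.24, and the libraries of the treatments overlapped for Gclm. The largest fall was that of G6pdx, which supplies NADPH, with 122 and 141 CPM in H2O2 and 178 and 208 CPM in KCl (log2 −0.55 ± 0.19, edgeR adjusted p = 0.025). That call was lost whichever library was left out, at edgeR adjusted p from 0.054 to 0.22. Over the whole list, 5 genes were called without KCl replicate 1 and 9 without KCl replicate 2, all higher in H2O2.

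The metallothioneins Mt1 and Mt2, small proteins that bind zinc and copper, were the 2 genes higher in H2O2 with the highest mean footprint TPM among genes called with a log2 difference of at least 1. Mt2 had 241 and 455 CPM in H2O2, 8.01 and 6.03 CPM in KCl and 113 and 83.8 CPM in the controls, so the KCl libraries lay below the controls and the H2O2 libraries above them (log2 5.64 ± 0.35, edgeR adjusted p = 6.8e-08). Mt1 had 288 and 611, 23.3 and 23.6 and 186 and 198 CPM in the same order (log2 4.26 ± 0.32, edgeR adjusted p = 3.1e-07), and this call was lost without KCl replicate 1 (edgeR adjusted p = 0.052). The 2 genes are close paralogues, and how reads shared between them were divided is not known here.

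The integrated stress response, in which ATF4 raises amino acid synthesis and import, was on the H2O2 side. Of 29 list members tested, 23 were called higher in H2O2 and 2 lower (median 1.24). Atf4 itself had 129 and 178 CPM in H2O2 and 50.7 and 34.5 CPM in KCl, the latter at the control level of 43.9 and 49.9 CPM (log2 1.86 ± 0.23, edgeR adjusted p = 2.8e-05). Trib3, a pseudokinase that restrains the response, had 74.4 and 93.8 against 19.8 and 12.4 CPM (log2 2.41 ± 0.25, edgeR adjusted p = 5.4e-06). The largest rise was Vldlr, a lipoprotein receptor, with 59.7 and 45.6 against 4.96 and 2.87 CPM (log2 3.78 ± 0.32), and the largest fall Nupr1, a small nuclear stress protein, with 25.2 and 29.8 CPM in H2O2 and 68.3 and 133 CPM in KCl (log2 −1.88 ± 0.28). Asns, asparagine synthetase, differed by log2 1.14 ± 0.19, and the CHOP gene Ddit3 by 1.28 ± 0.33. Both lost their call without KCl replicate 1 (edgeR adjusted p = 0.056 and 0.082), and Ddit3 also without H2O2 replicate 2 (0.059) and KCl replicate 2 (0.11). The whole list had 13 calls without KCl replicate 1 and 15 without KCl replicate 2, against 25 with all 4 libraries.

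Aminoacyl-tRNA synthetases, which charge tRNAs and include several ATF4 targets, differed little in footprints: of 20 tested, 5 were higher and 1 lower in H2O2 (median 0.17). Calls were made for 30% of the list, against 47.8% of all tested genes. Gars, for glycine, had 773 and 872 CPM in H2O2 and 307 and 347 CPM in KCl (log2 1.33 ± 0.18, edgeR adjusted p = 4.6e-05). Qars, for glutamine, had 147 and 129.8 against 294 and 304 CPM (log2 −1.11 ± 0.18, edgeR adjusted p = 0.0002). Both genes had separate groups, in opposite directions, and without KCl replicate 1 they were the 2 calls left of the 6.

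Chaperones controlled by HSF1, cytosolic but for the mitochondrial Hspd1 and Hspe1, were mostly lower in H2O2, 12 of 20 tested, with 2 higher (median −0.60). Hsph1, the HSP110 chaperone that reloads HSP70, had 1054 and 1308 CPM in KCl and 155 and 168 CPM in H2O2 (log2 −2.87 ± 0.19, edgeR adjusted p = 1.4e-07), with 261 and 326 CPM in the controls. Hspa8, the constitutive HSP70, had 5265 and 5868 against 2547 and 2215 CPM (log2 −1.23 ± 0.18, edgeR adjusted p = 8.3e-05), and here the KCl libraries were nearer the controls at 4699 and 5083 CPM. The largest rise was Hspb8, a small heat shock protein, at log2 1.46 ± 0.27, not called without KCl replicate 1 (edgeR adjusted p = 0.078). The list had 6 calls without KCl replicate 1 and 7 without KCl replicate 2, and the near-identical Hspa1a and Hspa1b, both among the 12, cannot be told apart safely in short footprints. Of 24 genes for ER chaperones and the unfolded protein response, 25% were called, against 47.8% of all tested genes. Among these ER genes, 1 was higher and 5 lower in H2O2 (median −0.10, but 0.08 on log2(TPM + 1)). They ranged from Atf6, a stress sensor of the ER membrane, with 72.4 and 76.5 CPM in H2O2 and 162 and 157 CPM in KCl (log2 −1.10 ± 0.18), to Edem1, which acts in ER-associated degradation, with 106 and 107 against 53.4 and 55.2 CPM (log2 0.97 ± 0.18). Without KCl replicate 1, 2 genes of the ER list were called.

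Mitosis genes were lower in H2O2 throughout the list. Of 34 tested, 30 were called lower and none higher (median −1.49), and Incenp, Cenpe, Ccna2 and Birc5 were not called. Plk1, the polo-like kinase of mitotic entry, had 39.1 and 22.1 CPM in H2O2 and 248 and 288 CPM in KCl, with 151 and 184 CPM in the controls (log2 −3.13 ± 0.25, edgeR adjusted p = 5.2e-07). The kinetochore protein gene Cenpf had 26 and 11.1 against 126 and 198 CPM (log2 −3.13 ± 0.32), and Kif11, the spindle motor Eg5, 61.4 and 44.8 against 253 and 351 CPM (log2 −2.51 ± 0.23). In all 3 genes the groups were separate, with the controls between them. Gtse1 and Ckap2, which are on the p53 list and are also known for roles at the spindle, ran the other way, with log2 values of 2.77 ± 0.21 and 1.36 ± 0.19.

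Because these genes moved together, their promoters are shown. The cell cycle homology region is a short element near the start of many mitosis genes, with the core TTTGAA, at which the DREAM complex is known to act when p21 is high. Of the 28 list members with a promoter in RefSeq's mouse annotation (GRCm38.p6, the patch release matching mm10), 75.0% held TTTGAA on either strand between 250 bases before and 50 bases after the start. The share was 13.5% of the 7983 tested genes with a promoter. CCAAT, searched on either strand in the same windows, was in 82.1% of the 28 and in 43.3% of the 7983. It was as common in other lists, in 89.5% of 19 ER chaperone genes and 84.2% of 19 genes of cholesterol and fatty acid synthesis. In all, 7 motifs were searched, and not all are reported here. A match is a description of the letters only, and was not tested as a binding site. The lines below give, for 4 mitosis genes with a match close to the start, the 80 bases before the start, with TTTGAA or its reverse complement TTCAAA in capitals.
Prc1 (chr7:80294396-80294475, plus strand): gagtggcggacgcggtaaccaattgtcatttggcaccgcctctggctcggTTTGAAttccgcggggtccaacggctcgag
Kif11 (chr19:37376302-37376381, plus strand): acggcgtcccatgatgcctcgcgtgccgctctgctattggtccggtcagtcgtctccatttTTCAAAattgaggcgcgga
Espl1 (chr15:102296213-102296292, plus strand): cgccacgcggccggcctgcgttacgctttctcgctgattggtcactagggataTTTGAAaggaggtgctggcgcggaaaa
Top2a (chr11:99024190-99024269, minus strand): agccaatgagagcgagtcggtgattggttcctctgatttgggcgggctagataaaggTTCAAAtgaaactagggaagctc
Prc1, which bundles spindle midzone microtubules, had a footprint log2 value of −2.76 ± 0.21 and Kif11 of −2.51 ± 0.23. Espl1 is the separase that cuts cohesin, and Top2a the topoisomerase that untangles sister chromatids, with −1.52 ± 0.20 and −1.31 ± 0.19. The match begins 30 bases before the start in Prc1, 19 in Kif11, 27 in Espl1 and 23 in Top2a.

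**Figure D3:**
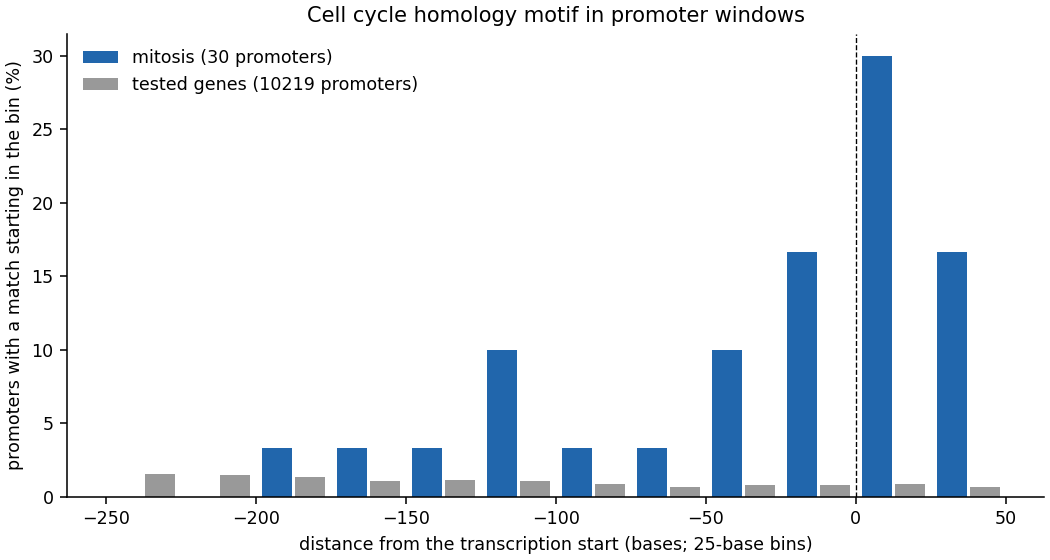
Share of promoters with a match to the cell cycle homology core that begins in each 25-base bin, by distance from the transcription start, for 30 promoters of mitosis genes (blue) and 10219 promoters of tested genes (grey). The blue bars reach 30% in the 25 bases after the start, where the grey bar is at 0.871%.

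DNA replication genes did not share that direction. Of 40 tested, 12 were higher and 3 lower in H2O2 (median 0.20). The share called was 37.5%, against 47.8% of all tested genes. Rrm2, the regulated subunit of ribonucleotide reductase, had 856 and 1134 CPM in H2O2 and 256 and 321 CPM in KCl (log2 1.78 ± 0.20, edgeR adjusted p = 1.0e-05). Pcna, the sliding clamp, had 626 and 635 against 1019 and 1030.0 CPM (log2 −0.70 ± 0.17, edgeR adjusted p = 0.0037), a call lost without KCl replicate 1 (edgeR adjusted p = 0.053). The list had 2 calls without KCl replicate 1, 4 without KCl replicate 2 and 9 without H2O2 replicate 1. Replication-dependent histones, whose mRNAs lack a polyA tail, were likewise mixed, with 5 higher and 3 lower of 22 tested. They ran from Hist1h2bj, with 252 and 239 CPM in H2O2 and 439.6 and 479.5 CPM in KCl, to Hist2h2ac, with 87.7 and 35.4 against 17.5 and 24.4 CPM, the call of Hist2h2ac being lost without H2O2 replicate 1 and with either KCl library left out (edgeR adjusted p = 0.051, 0.26 and 0.16). Of the 8 calls, 1 was made with either KCl library left out and 5 without H2O2 replicate 1. Histone genes of a cluster are near-identical copies, so single values are uncertain. With every library in, the histone list's share of calls was 36.4%, also under that of all tested genes.

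Metabolic lists lay on the KCl side. In cholesterol and fatty acid synthesis, which SREBP factors control, 25 of 29 genes were lower in H2O2 and none higher (median −1.5). Sqle, squalene epoxidase, had 99.9 and 87.3 CPM in H2O2 and 557 and 331 CPM in KCl, with 303 and 309 CPM in the controls (log2 −2.24 ± 0.24, edgeR adjusted p = 6.3e-06). Hmgcs1, which makes HMG-CoA, had 106 and 87.6 against 463 and 371 CPM (log2 −2.10 ± 0.20). The groups were separate in both. For Sqle both H2O2 libraries lay below both controls, and both KCl libraries lay above them. Summed over the list, the level was 4057 to 4261 CPM in H2O2, 9698 to 13879 CPM in KCl and 8893 to 9748 CPM in the controls. In glycolysis 14 of 17 genes were lower and none higher (median −0.94). Pfkp, the platelet-type phosphofructokinase, had 18.4 and 22.7 CPM in H2O2 and 116 and 117 CPM in KCl (log2 −2.50 ± 0.21, edgeR adjusted p = 6.4e-07). Gapdh and Pkm were the 2 genes lower in H2O2 with the highest mean footprint TPM among genes called with a log2 difference of at least 1. On the authors' TPM scale, which allows for gene length, Gapdh had 3226 ± 211 in H2O2 and 6602 ± 1367 in KCl (SD, n = 2), and Pkm 2287 ± 176 and 4938 ± 328. With either KCl library left out, 7 of the 17 glycolysis genes were called.

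Footprints on the mitochondrial genome were lower in H2O2 for 12 of 13 protein-coding genes (median −2.76), the lowest median of any list, and the same number was called with each library left out in turn. These mRNAs are translated by mitochondrial ribosomes inside the organelle. COX1, the core subunit of cytochrome oxidase, had 76.1 and 99.5 CPM in H2O2, 655 and 1208 CPM in KCl and 614 and 459.9 CPM in the controls (log2 −3.41 ± 0.28, edgeR adjusted p = 5.6e-07). ND6, a complex I subunit, had 4.53 and 6.52, 111 and 97.7 and 86.8 and 35 CPM in the same order (log2 −4.23 ± 0.26, edgeR adjusted p = 6.3e-08). It is encoded on the strand opposite to the other 12, and the sources used here do not say whether counting used the strand. ATP8, which overlaps ATP6, was not called (log2 −0.70 ± 0.29). The RNA of all 13 was lower in H2O2 as well (median −2.26). By contrast, of 32 nuclear-encoded respiratory chain genes 5 were lower and none higher (median −0.10), and the largest fall was Uqcrh of complex III with 35.4 and 38 against 88.5 and 70.7 CPM. In all, 15.6% of this nuclear list was called, against 47.8% of all tested genes. The median of that list turned to 0.08 on log2(TPM + 1) and to 0.01 without H2O2 replicate 1, and its calls numbered 3 with either H2O2 library left out and 1 with either KCl library left out. Proteasome genes were as close to 0, with 3 higher and 4 lower of 31 (median −0.13, and 0.01 on log2(TPM + 1)), from Psmd2 at log2 −0.65 to Psmc1 at 0.55. With every library in, 22.6% of the proteasome genes were called. None of them was called by edgeR with either KCl library left out, 1 without H2O2 replicate 1 and 2 without H2O2 replicate 2, and Psmc1 was in none of these fits (edgeR adjusted p from 0.062 to 0.11).

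Immediate early genes, the transcription factors and phosphatases that answer a stimulus within minutes, were mostly on the H2O2 side at 7 h, with 17 higher and 4 lower of 25 tested (median 1.64). Egr1 had 292 and 293 CPM in H2O2, 34.7 and 13.5 CPM in KCl and 164 and 102 CPM in the controls (log2 3.64 ± 0.31, edgeR adjusted p = 9.7e-07). Fos had 58.9 and 84.8 against 6.1 and 5.46 CPM, with 10.7 and 6.73 CPM in the controls (log2 3.63 ± 0.29, edgeR adjusted p = 4.7e-07). Dusp5, a nuclear phosphatase of ERK, had 121 and 145 CPM in H2O2 and 94.6 and 151 CPM in the controls, and 9.91 and 9.77 CPM in KCl (log2 3.75 ± 0.23). For all 3 genes both KCl libraries were below both controls, and for Egr1 and Fos both H2O2 libraries were also above them. The largest fall was the nuclear receptor gene Nr4a2, with 3.68 and 3.12 CPM in H2O2 and 13.7 and 13.2 CPM in KCl (log2 −1.97 ± 0.37).

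Secreted signals differed in both directions. Of 33 cytokines and growth factors tested, 12 were higher and 11 lower in H2O2 (median 0.02, the same with the 2 genes at 0 in KCl set at their bound). Lif, an IL-6 family cytokine, had 159 and 149 CPM in H2O2, 2.29 and 0.862 CPM in KCl and 49.7 and 30.8 CPM in the controls (log2 6.66 ± 0.33, edgeR adjusted p = 9.9e-09). Pdgfa, a fibroblast mitogen, had 64.2 and 65.2 against 2.67 and 0.862 CPM (log2 5.26 ± 0.36, edgeR adjusted p = 1.6e-07), and Vegfa, the angiogenic factor, 121 and 99.5 against 45 and 18.4 CPM (log2 1.83 ± 0.30). Csf2, which encodes GM-CSF, had 118 counts in the H2O2 group and none in the KCl group, at least 34.0-fold higher when the KCl group is set at 3 counts. On the KCl side, Cxcl5, a chemokine for neutrophils, had 188 and 163 CPM against 9.9 and 6.52 CPM in H2O2 (log2 −4.41 ± 0.25, edgeR adjusted p = 3.8e-08). Stc1, the glycoprotein stanniocalcin-1, had 90 and 73.6 against 8.21 and 2.27 CPM (log2 −3.95 ± 0.36, edgeR adjusted p = 1.5e-06). No pair of groups overlapped among these genes. Without KCl replicate 1 the list had 10 genes higher and 3 lower.

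Extracellular matrix genes leaned to the KCl side, with 13 lower and 3 higher of 33 tested (median −0.39). Thbs1, the matricellular protein thrombospondin-1, had 1141 and 1156 CPM in H2O2, 6039.9 and 4847 CPM in KCl and 7403 and 7652 CPM in the controls (log2 −2.24 ± 0.19, edgeR adjusted p = 7.0e-07). Col18a1, the source of endostatin, went the other way with 378 and 302 against 20.2 and 11.8 CPM (log2 4.43 ± 0.26, edgeR adjusted p = 5.6e-08). The calls numbered 10 without H2O2 replicate 1, 4 without KCl replicate 1, 8 without KCl replicate 2 and 8 on log2(TPM + 1), and 4 of the list are also fibroblast markers, which were lower in H2O2 as given above. Matrix proteases and their inhibitors had 5 higher and 4 lower of 18 (median 0.08), shares close to the 25.6% and 22.2% of all tested genes. Plau, the urokinase activator of plasminogen, had 1842 and 1492 CPM in H2O2 and 188 and 166 CPM in KCl (log2 3.24 ± 0.20, edgeR adjusted p = 6.8e-08). Plat, the tissue-type activator, had 242 and 198 against 1113 and 685 CPM (log2 −2.03 ± 0.23, edgeR adjusted p = 1.1e-05), so the 2 activators differed in opposite directions with no overlap of libraries. Serpine2, an inhibitor of both, was highest in fold at log2 4.52 ± 0.49, a call lost without KCl replicate 1 (edgeR adjusted p = 0.056). Of 21 actin cytoskeleton genes, 12 were lower and 1 higher (median −0.61). Vcl, the focal adhesion protein vinculin, had 602 and 637 CPM in H2O2 and 2465 and 2622 CPM in KCl (log2 −2.04 ± 0.17, edgeR adjusted p = 9.2e-07), and Filip1l, which binds filamin, 63.4 and 43.4 against 352 and 437 CPM (log2 −2.88 ± 0.23). The member called higher was Tagln2, an actin-binding protein, at log2 0.67 ± 0.18, and its call was lost without H2O2 replicate 2 or either KCl library (edgeR adjusted p = 0.11, 0.1 and 0.083). The actin list had 5 calls without KCl replicate 1 and 6 without KCl replicate 2.

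**Figure D4:**
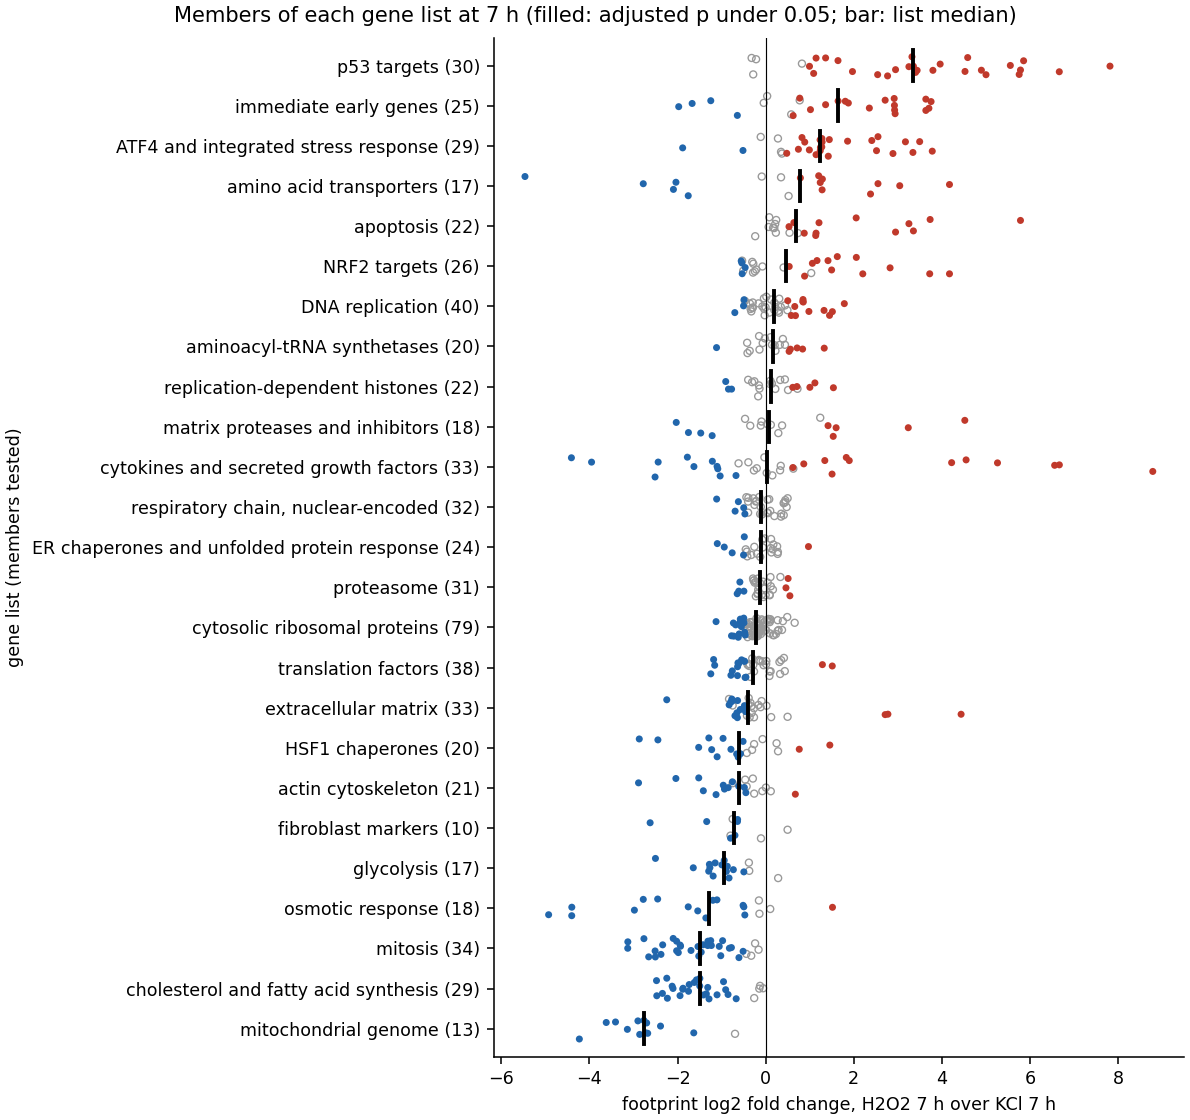
Footprint log2 fold change, H2O2 over KCl, of each tested member of the 25 lists with at least 10 tested members, ordered by the list median (bar); filled points are called, open points are not. The medians run from −2.76 for the mitochondrial genome to 3.34 for p53 targets, and most lists hold members on both sides of 0.

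Among the 24 genes with the largest differences above a mean of 20 CPM and with at least 10 counts in both groups, several stand on no list. Tap1, which pumps peptides into the ER for antigen presentation (chr17:34187556-34197225, mm10), had 424 and 411 CPM in H2O2, 3.43 and 1.15 CPM in KCl and 12 and 7.85 CPM in the controls, the largest rise of the 24 (log2 7.58 ± 0.32, edgeR adjusted p = 6.5e-09). Mmp15, a membrane-type matrix metalloproteinase, had 171 and 145 against 2.29 and 1.15 CPM (log2 6.55 ± 0.32, edgeR adjusted p = 9.5e-09). Crip2, a LIM domain protein, had 347 and 318 against 8.39 and 9.19 CPM (log2 5.23 ± 0.23). The polarity protein gene Pard6g and the kinase gene Cdc42bpg, whose products both act with CDC42, were higher by similar amounts, with 5.0 ± 0.31 and 4.99 ± 0.29. Hist1h2bl, an H2B gene, had 95.7 and 84.5 CPM in H2O2 and 6.48 and 0 CPM in KCl (log2 4.96 ± 0.53), while the controls held 88.3 and 269.6 CPM. With KCl replicate 1 left out its KCl group had no count, and no fold is given for it there. On the KCl side, Prss35, a secreted protein of the serine protease family (chr9:86743240-86758443, mm10), had 78.5 and 107 CPM against 2.26 and 0.567 CPM in H2O2 and 3.49 and 4.2 CPM in the controls (log2 −6.00 ± 0.38, edgeR adjusted p = 8.3e-08). Bpgm, bisphosphoglycerate mutase, had 86.9 and 113 against 5.66 and 4.82 CPM (log2 −4.25 ± 0.26), and Ndnf, a secreted neurotrophic factor, 151 and 97.4 against 8.21 and 8.79 CPM (log2 −3.86 ± 0.27). Vegfd, a lymphangiogenic factor that is not on the cytokine list, had 65.2 and 66.7 against 4.24 and 5.39 CPM (log2 −3.77 ± 0.27). Amd1, the S-adenosylmethionine decarboxylase of polyamine synthesis, had 63.3 and 132 CPM in KCl and 5.66 and 8.51 CPM in H2O2 (log2 −3.79 ± 0.36, edgeR adjusted p = 2.0e-06). It shares sequence with Amd2, and how their common reads were assigned is not known here. None of these pairs of groups overlapped.

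How far the footprint differences followed the RNA was measured in the same 2 treatments. Of 12632 genes tested in RNA, 10422 (82.5%) were called, 5369 higher (42.5%) and 5053 lower (40%) in H2O2, from libraries of 24441877 to 31669870 expected counts. Across the 10154 genes tested in both, footprint and RNA log2 fold changes correlated at Pearson r = 0.883 and a Spearman rank coefficient of 0.830. This is across genes, which are not independent replicates. Among 4604 genes called in both, 4446 (96.6%) had the same direction, 86 were higher in footprints and lower in RNA, and 72 were lower in footprints and higher in RNA. The cytosolic ribosomal proteins held 16 of those 72. Since the RNA of all 80 tested was higher in H2O2, every member called lower in footprints falls in this class. They were 20.3% of the 79 tested in footprints, against 22.2% lower over all tested genes.

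Translational efficiency, the footprint difference beyond the RNA difference, was tested as an interaction over the 8 footprint and RNA libraries of both treatments. Of 10154 genes, 1611 (15.9%) were called, 972 higher (9.57%) and 639 lower (6.29%) in H2O2 against KCl, with a median over all genes of 0.08. Efficiency counts of the gene lists are to be read against these shares. The count was smaller when an RNA library was left out: 430 and 536 without H2O2 RNA replicates 1 and 2, and 745 and 488 without KCl RNA replicates 1 and 2. With limma voom and a weight for each kind of library, 1012 genes were called.

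Cytosolic ribosomal proteins were higher in H2O2 in RNA but not in footprints. In RNA, all 80 tested were higher in H2O2 (median 0.54 against 0.03 for all genes). In footprints, of 79 tested none was higher and 16 were lower (median −0.21, and −0.03 on log2(TPM + 1), with 3 higher and 4 lower). The 16 are 20.3% of the list, against 22.2% lower over all tested genes. Translational efficiency was lower in H2O2 for 52 of 79 and higher for none (median −0.77, from −0.91 to −0.63 over all alternatives). Rps20, with the largest footprint fall, had 134 and 192 footprint CPM in H2O2 and 405 and 306 in KCl, but 451 and 459 RNA CPM in H2O2 and 302 and 265 in KCl. The order of the treatments was opposite in the 2 kinds of library, with no overlap in either (efficiency log2 −1.81 ± 0.24, edgeR adjusted p = 0.002). Its footprint call was lost without KCl replicate 1 (edgeR adjusted p = 0.11). Rplp0, of the ribosomal stalk, had 589.8 and 605 against 970.0 and 1015 footprint CPM and 1906 and 1861 against 1363 and 1369.5 RNA CPM (efficiency log2 −1.20 ± 0.14, edgeR adjusted p = 0.0011). The number of ribosomal protein genes with lower efficiency ran from 12 to 71 as single libraries were left out, and Rps20 kept its call throughout. In footprints, 3 were lower and 1 was higher without H2O2 replicate 1 and likewise without KCl replicate 2, and 2 were lower without KCl replicate 1. Ribosomal protein genes have many processed pseudogenes, with which reads may be shared.

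Ribosomal protein mRNAs are known for a terminal oligopyrimidine tract, a C followed by a run of pyrimidines at the very 5′ end, through which mTORC1 and LARP1 control their translation. A C followed by at least 4 pyrimidines, starting within 3 bases of the annotated start, was found in 42.4% of the 59 ribosomal protein genes with a RefSeq promoter and in 15.2% of the 7983 tested genes with one. The annotated start may be off by a few bases, so the absence of a match says only that the letters are not in this window. For all genes with a lower efficiency the share was 16.4%, and for those with a higher efficiency 14.6%. The next lines show 4 ribosomal protein genes with a match, from 10 bases before the start to 20 bases after it, with the pyrimidine run in capitals (RefSeq, GRCm38.p6).
Rplp2 (chr7:141447641-141447670, plus strand): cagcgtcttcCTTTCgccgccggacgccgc
Rps6 (chr4:86857348-86857377, minus strand): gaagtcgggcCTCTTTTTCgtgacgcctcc
Rpl12 (chr2:32961702-32961731, plus strand): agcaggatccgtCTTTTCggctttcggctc
Rpl38 (chr11:114668570-114668599, plus strand): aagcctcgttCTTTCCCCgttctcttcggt
The efficiency values of Rplp2, a stalk protein, and Rps6, the phosphorylated protein of the small subunit, were log2 −1.11 ± 0.18 and −0.96 ± 0.22. Those of Rpl12 and Rpl38, of the large subunit, were −0.89 ± 0.17 and −0.87 ± 0.23. The calls of Rps6, Rpl12 and Rpl38 were lost without at least 1 of the 8 libraries, at edgeR adjusted p of up to 0.084, 0.065 and 0.14.

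Other parts of the translation machinery had lower efficiency in H2O2 as well. Of 38 translation factors, 19 were lower in efficiency and 1 higher (median −0.57), while their footprints had 14 lower and 2 higher (median −0.29) and their RNA 26 higher and 4 lower. Eif4e, the cap-binding protein, had 88.3 and 119 footprint CPM in H2O2 and 257 and 234 in KCl (log2 −1.25 ± 0.20). Eif4ebp1, its inhibitor and an ATF4 target, had 100.5 and 149 against 38.1 and 48.8 (log2 1.51 ± 0.23). They were the largest fall and rise in the list, in opposite directions, and neither was called without KCl replicate 1 (edgeR adjusted p = 0.061 and 0.083). Eif4g1, the scaffold of the cap complex, had 685 and 715 against 1554 and 1568 (log2 −1.16 ± 0.17, edgeR adjusted p = 9.5e-05). The footprint calls of this list numbered 7, 10, 2 and 6 without H2O2 replicate 1, H2O2 replicate 2, KCl replicate 1 and KCl replicate 2, 10 on log2(TPM + 1) with 5 in each direction, and the efficiency calls in the lower direction ran from 4 to 28. Of the 20 tRNA synthetases, 14 were lower in efficiency and none higher (median −0.79, 4 to 17 lower with 1 library left out), with RNA higher for 18. Mthfd2, a mitochondrial folate enzyme of the ATF4 list, had 288 and 286 RNA CPM in H2O2 and 85.5 and 73.8 in KCl but 153 and 150.0 and 121 and 128 footprint CPM (efficiency log2 −1.57 ± 0.16, edgeR adjusted p = 0.00061). In that list 11 of 29 genes were lower in efficiency and 3 higher (median −0.55, 5 to 14 lower with 1 library left out).

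The extracellular matrix differed in the other direction: 11 of 33 genes were higher in efficiency in H2O2 and 1 lower (median 0.54, from 0.22 to 0.72 over all alternatives), and 2 to 18 were higher with 1 library left out. Fn1, fibronectin, had 2723 and 2657 RNA CPM in H2O2 and 3895 and 4337 in KCl, with 5545 and 4465 and 4189 and 2903 footprint CPM (efficiency log2 1.11 ± 0.23, edgeR adjusted p = 0.011). That call was lost without either H2O2 RNA library (edgeR adjusted p = 0.060 and 0.062) or KCl RNA replicate 2 (0.069). By edgeR the osmotic, cholesterol and protease lists had no gene called in efficiency out of 18, 29 and 18, and 4, 6 and 4 genes at an unadjusted p under 0.05, against 32% of all genes. DESeq2 called 2, 1 and 0 of them. Without footprint KCl replicate 1, 5 osmotic genes were called higher and 1 lower, 14 cholesterol genes higher and none lower, and 2 protease genes in each direction, and with a minimum count of 30 there were 3 osmotic and 2 cholesterol genes higher.

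**Figure D5:**
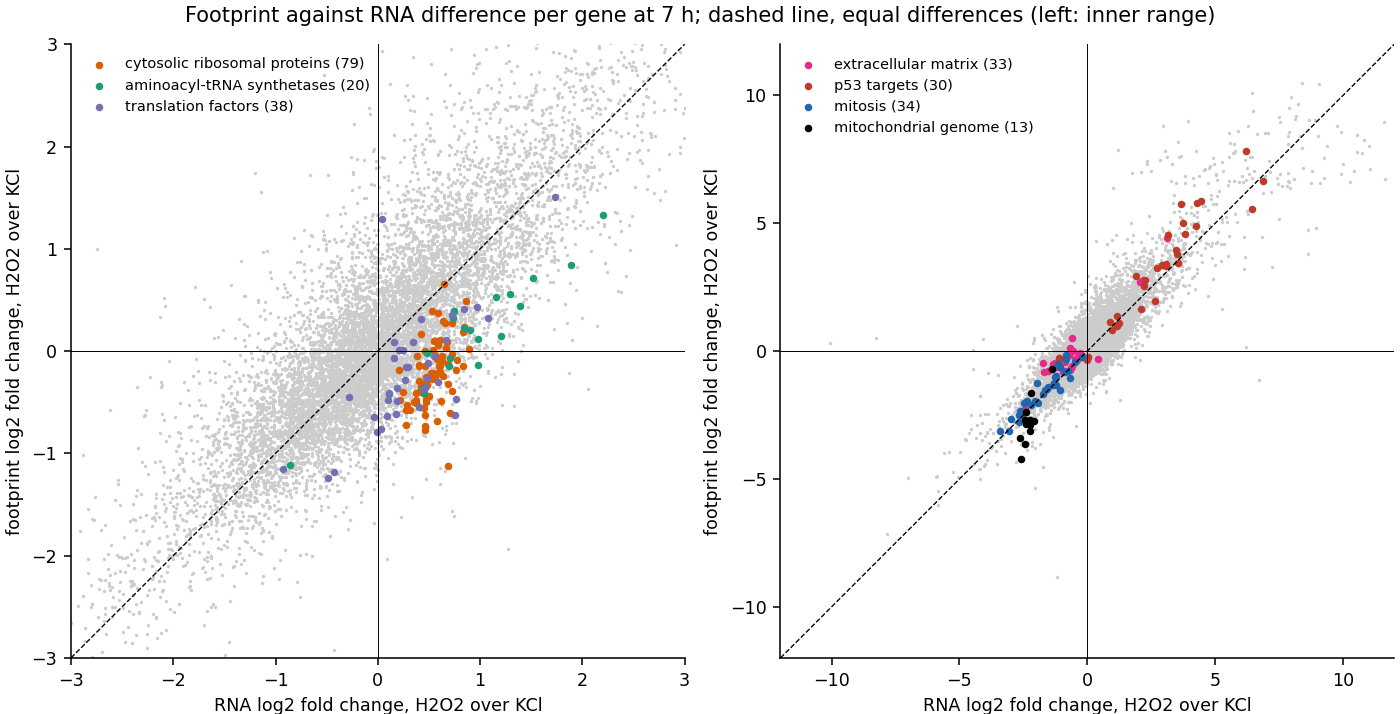
Footprint against RNA log2 fold change, H2O2 over KCl, for genes tested in both (grey), with gene lists in colour and a dashed line where the 2 are equal; the left panel shows the inner range only. The ribosomal proteins and tRNA synthetases lie below the line at RNA values mostly above 0, and the mitosis and p53 genes lie along it.

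The 6 genes with the largest efficiency differences in each direction were mixed in function. Lower in H2O2 were Wsb1, a ubiquitin ligase adaptor, Chka, a choline kinase, Wdr43, of ribosome biogenesis, Fth1, the ferritin heavy chain, Ccnd1, which encodes cyclin D1, and Rps20. Wsb1 had 76.1 and 80.2 footprint CPM in H2O2 and 221 and 256 in KCl, against 221 and 256 and 144 and 140.4 RNA CPM (efficiency log2 −2.36 ± 0.17, edgeR adjusted p = 0.00029). Fth1 had 147 and 169.5 against 223 and 234 footprint CPM and 1659 and 1528 against 666 and 603 RNA CPM (efficiency log2 −1.86 ± 0.17, edgeR adjusted p = 0.00035). For both, RNA was higher and footprints lower in H2O2, without overlap, but the footprint call of Fth1 was lost with each of the 4 libraries left out (edgeR adjusted p from 0.063 to 0.23). The efficiency values of Chka, Wdr43 and Ccnd1 were log2 −2.30 ± 0.31, −1.90 ± 0.19 and −1.81 ± 0.19. Higher in H2O2 were Tulp4, a tubby-like protein, Arhgef10l, a guanine nucleotide exchange factor, the histone deacetylase Hdac5, Mt1, Micall1, of membrane recycling, and Fbxw7, the ubiquitin ligase subunit that targets MYC and cyclin E. Fbxw7 had 72.4 and 78 footprint CPM in H2O2 and 6.48 and 1.44 in KCl, against 43.9 and 49.8 and 24.2 and 24.3 RNA CPM (efficiency log2 3.43 ± 0.36, edgeR adjusted p = 0.00068). Hdac5 had 31.1 and 38 against 12.2 and 8.91 footprint CPM and 85.5 and 88.2 against 112 and 132 RNA CPM (efficiency log2 2.23 ± 0.24, edgeR adjusted p = 0.00092). The efficiency of Tulp4, Arhgef10l, Mt1 and Micall1 differed by log2 2.06 ± 0.19, 2.13 ± 0.29, 2.53 ± 0.40 and 2.86 ± 0.35. All 12 efficiency calls were kept with each of the 8 libraries left out in turn.

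Efficiency differences also moved with gene length. Genes were ranked by length, taken from the ratio of footprint counts to TPM, and split in 4 equal bins. Of the 2539 in the shortest bin, 125 were higher and 199 lower in H2O2 with a median log2 value of −0.04. In the longest bin, also of 2539, 396 were higher and 83 lower with a median of 0.23. Median RNA differences, binned likewise, fell from 0.22 in the shortest to −0.29 in the longest bin. Median footprint differences fell less, from 0.09 to −0.14. The median of the ribosomal proteins, −0.77, was below that of the shortest bin. The part of length in the list differences was not tested.

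The deposited files also hold the authors' calls of read-in, transcription that runs into a gene from its neighbour. They named 37 and 36 genes in the 2 H2O2 RNA libraries and 59 and 65 in the 2 KCl RNA libraries at 7 h. For the 23 genes called in both KCl but neither H2O2 library, RNA was lower in H2O2 for 13 and higher for 7 of 22 tested (median −0.38), against 40% lower and 42.5% higher over all genes. Their footprints were lower for 4 and higher for 8 of 17 tested (median 0.12), against 22.2% lower and 25.6% higher over all genes.

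Few of these genes were called at the earlier time. After 2 h, 145 of 9649 genes (1.5%) were called between H2O2 and KCl, 87 higher (0.902%) and 58 lower (0.601%) in H2O2, and 1 of those 4 libraries had 1460751 counts. Of 4379 genes called at 7 h and tested at 2 h, 113 were called at 2 h, 110 of them in the same direction. Called at 2 h or not, 2987 of the 4379 (68.2%) had the same sign at 2 h. Across all genes tested at both times, the log2 fold changes correlated at Pearson r = 0.353. The change of the difference, tested as an interaction over the 8 footprint libraries of both times, was called for 1736 of 10454 genes (16.6%), 1011 rising (9.67%) and 725 falling (6.94%) in H2O2 relative to KCl from 2 h to 7 h. It was called for 1032 and 941 genes without the 7 h H2O2 replicates 1 and 2, and for 1003 without 7 h KCl replicate 1. The mitochondrial genome had 12 of 13 genes falling, cholesterol synthesis 17 of 29, mitosis 19 of 34 and the osmotic list 11 of 18, and p53 targets had 16 of 30 rising, with none in the opposite direction except for 1 osmotic gene, Pla2g6. The ribosomal protein list had 1 of 79 rising and none falling. Mdm2 differed by log2 1.87 at 2 h (edgeR adjusted p = 0.018) and by 5.85 at 7 h, while Mt2 had already differed by 4.54 at 2 h (edgeR adjusted p = 6.3e-05).

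Among called genes, the mean of the unstressed controls mostly lay between the means of the 2 treatments. For 1669 of the 2619 genes higher in H2O2 (63.7%) the mean of the 2 control libraries was between the means of the treatments. For 614 (23.4%) the control was below both and for 336 (12.8%) above both. Of the 2267 genes lower in H2O2, the control was between the treatments for 1637 (72.2%), below both for 341 (15%) and above both for 289 (12.7%). The H2O2 mean was the one farther from the control, on the log2 scale, for 62.3% of the genes higher in H2O2 and for 49.8% of those lower in it. These positions are counts of means and carry no test. Called genes were chosen for a difference between the treatments, which by itself favours a control mean in between. An offset of any size counts, and the share over all tested genes was not counted.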

How the data were processed

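The authors' deposited footprint and RNA tables hold RSEM expected counts per gene symbol, given as whole numbers, and TPM (transcript levels scaled for length and library total). The submitters' processing notes name STAR, RSEM, Bowtie and build mm10, without role or version, and RNA was polyA-selected per the labels' protocols. Read trimming, footprint length filters, annotation and strand are not stated by the sources used here. Expected counts were tested with edgeR 4.0.16 (R 4.3.3): TMM factors, filterByExpr with a minimum count of 10, the quasi-likelihood F test and an adjusted p under 0.05. Each SE of a log2 value is its absolute value divided by the square root of the F statistic. It thus follows the spread of the fit, not only that of a gene's own replicates. The 4 libraries of the comparison were fitted alone, as were the 4 RNA and the 4 libraries at 2 h, and translational efficiency and the change from 2 h to 7 h over 8 libraries each. The deposited TPM entered limma 3.58.1 as log2(TPM + 1), and the deposited read-in calls, true or false per library, were counted. Named genes were the 12 with the largest called difference in each direction above a mean of 20 CPM and with at least 10 counts in each group (6 for efficiency), leaving out Gm, Rik and LOC symbols, the members of the lists with the largest called rise and fall, other list members, and the 2 genes of each direction with the highest TPM. Some list members are not reported here. The members and the 28 lists were chosen with earlier results of these data known. Columns without a labelled sample, 12 of heat treatments, were not used. All 19941 footprint symbols were found in the RNA table and 19418 in the RefSeq table, and 6024 genes had no count in the 4 libraries. Where a group had no count, a fold is a lower bound at 3 counts over the group. Intervals of low counts are exact, at 95%, and cover counting error only. Simulated data kept the footprint libraries' means and sizes (10228 genes). In them 66 genes were changed 4-fold, 67 changed 2-fold, 67 changed 1.5-fold and the rest left unchanged. The test recovered 89.4%, 65.7% and 2.99% of these, and 7.89% of its 114 calls were unchanged genes. With so few changed genes the adjustment is stricter than in the data, where 47.8% of genes were called. The shares therefore do not measure recovery in the data. DESeq2 1.42.0 was among the alternatives.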

Additional observations from a re-analysis of the deposited data

Results flagged for a closer look

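For 21 of the 24 genes with the largest footprint differences, the difference between H2O2 and KCl itself changed from 2 h to 7 h (edgeR interaction over 8 footprint libraries, adjusted p under 0.05), against 16.6% of all genes tested. These genes were chosen for their difference at 7 h, which is part of the change itself, so their number is a description only. For genes higher in H2O2 the change, in log2 units, was 7.22 for Tap1, 6.05 for Mmp15, 5.81 for Hist1h2bl, 5.51 for Cdkn1a, 5.22 for Pard6g, 5.13 for Crip2, 5.02 for Fas, 5.0 for Pdgfa, 4.01 for Mdm2 and 3.81 for Cdc42bpg. For genes higher in KCl it was −6.49 for Prss35, −5.52 for Slc6a12, −4.47 for Slc1a3, −3.65 for both Cxcl5 and Hspa4l, −3.59 for Stc1, −3.39 for Akr1b3, −3.29 for Bpgm, −3.27 for Ndnf, −3.24 for Vegfd and −1.94 for ND6. The exceptions were Amd1, Btg2 and Mt2, at −0.83 ± 0.56, 1.31 ± 0.63 and 1.13 ± 0.48 (edgeR adjusted p = 0.34, 0.18 and 0.12). Btg2 was called without 2 h H2O2 replicate 2 (2.03, edgeR adjusted p = 0.021) and Mt2 without 7 h H2O2 replicate 1 (1.52, edgeR adjusted p = 0.033). The change of Slc6a12 was not called without 2 h H2O2 replicate 2 (edgeR adjusted p = 0.25), nor was that of Stc1 (0.50) or Ndnf (0.16), the latter also not without 7 h KCl replicate 1 (0.053). Without 2 h KCl replicate 1 the value of Slc6a12 was −9.41. The change of Hist1h2bl was not called with any of 7 of the 8 libraries left out (edgeR adjusted p from 0.053 to 0.25). It turned to −5.68 without 2 h KCl replicate 2, which leaves a single KCl library at 2 h.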

How the results depend on the processing

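The number of footprint calls, 4886 as reported, lay between 3834 (DESeq2) and 4925 (RLE size factors) under other size factors, tests, filters, summed split symbols, TPM values or a spread taken from 10 footprint libraries, and between 1905 and 3879 with 1 library left out. Efficiency calls, 1611 as reported, numbered 1012 with limma voom and a weight for each kind of library (521 higher, 491 lower) and 430 to 2286 with 1 library left out. RNA calls stayed between 9518 and 10868. Calls of the change from 2 h to 7 h, 1736 as reported, ran from 941 to 1926 with 1 library left out. Leaving a library out moved the counts for efficiency and for the change with time in both directions. The cause of these shifts was not tested. With the replicate number as a block, 5354 genes were called in footprints, 1329 in efficiency, 10459 in RNA and 1625 in the change with time. The labels give the treatments the same replicate numbers, but the deviations of same-numbered libraries correlated at 0.21 in footprints and 0.02 in RNA, with only 2 pairs each, so the number was not taken as a pairing. Within KCl, footprint and RNA deviations correlated at −0.21, and a block with crossed numbers, added after the data were seen, called 1213 genes in efficiency.

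On log2(TPM + 1) the footprint difference turned to 0.088 for Sesn1, 0.11 for Tigar, 0.086 for Rpl38 and 0.026 for Tapbp, and the median of the ER list to 0.078. With 1 library left out, the difference ran from −0.90 to 0.28 for Ddb2 (0.07 without H2O2 replicate 2 and 0.28 without KCl replicate 1), from −0.64 to 0.22 for Sesn1 and from −0.63 to 0.17 for Gclm (both highest without KCl replicate 2). It ran from −0.35 to 0.12 for Rpl38 (0.12 without H2O2 replicate 2 and 0.10 without KCl replicate 2), from −0.46 to 0.81 for H2-K1 (−0.21 without H2O2 replicate 1, −0.46 without KCl replicate 2), from −0.59 to 0.29 for Tapbp (highest without KCl replicate 1) and from −0.037 to 1.75 for Psmb8 (lowest without KCl replicate 2). None of these 8 genes was called with all libraries in. The change of Hist1h2bl from 2 h to 7 h ran from −5.68 to 12.05, where the upper value comes from a 7 h KCl group without counts and is no measure of size. Without a filter the median footprint difference of all genes was 0.11. The libraries held 2884344 to 3775978 counts each, and the part of this depth in which small differences were called was not tested.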

Other observations

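Polyamine genes, chosen after their values were seen, differed in opposite directions. Amd1 and Amd2, close copies that encode S-adenosylmethionine decarboxylase, were lower in H2O2, with footprint log2 values of −3.79 ± 0.36 and −3.15 ± 0.21, and Sms, spermine synthase, had 24.3 and 30.1 CPM in H2O2 and 39.7 and 59.2 CPM in KCl (log2 −0.87 ± 0.24, edgeR adjusted p = 0.0095). The call of Sms was lost without H2O2 replicate 1 and with either KCl library left out (edgeR adjusted p = 0.061, 0.053 and 0.16). Sat1, which starts polyamine breakdown, had 37.1 and 49.6 CPM in H2O2, 138 and 131 CPM in KCl and 21.7 and 20.5 CPM in the controls (log2 −1.63 ± 0.20, edgeR adjusted p = 2.4e-05). Odc1, ornithine decarboxylase, was the member higher in H2O2, with 573 and 519 CPM against 187 and 135 CPM (log2 1.76 ± 0.20, edgeR adjusted p = 1.1e-05). Srm and Azin1 were not called in footprints, at log2 −0.23 and −0.39. The translational efficiency of Srm, spermidine synthase, and of Azin1, the antizyme inhibitor, was lower in H2O2, at log2 −1.56 ± 0.20 and −1.07 ± 0.22 (edgeR adjusted p = 0.0016 and 0.01). That of Azin1 was not called without footprint KCl replicate 2, H2O2 RNA replicate 2 or KCl RNA replicate 2, at edgeR adjusted p of 0.051, 0.054 and 0.054.

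Besides Tap1, genes of antigen presentation by MHC class I, also chosen after their values were seen, were higher in H2O2 or not called. Nlrc5, the class I transactivator, had 57.7 and 54.4 CPM in H2O2, 0.763 and 1.15 CPM in KCl and 0.749 and 0.28 CPM in the controls (log2 5.78 ± 0.36, edgeR adjusted p = 7.7e-08). Tap2, the partner of Tap1, had 27.2 and 13.6 against 13.3 and 4.31 CPM (log2 1.27 ± 0.44, edgeR adjusted p = 0.03), and the class I heavy chain gene H2-D1 315 and 264 against 191 and 222 CPM (log2 0.49 ± 0.18, edgeR adjusted p = 0.043). Tap2 was not called without H2O2 replicate 1 (0.21), KCl replicate 1 (0.11) or KCl replicate 2 (0.45), and H2-D1 with any of the 4 libraries left out (edgeR adjusted p from 0.07 to 0.32). B2m, H2-K1, Tapbp, Psmb8 and Psmb10 were not called, at log2 0.24, 0.05, −0.21, 0.68 and 0.40. H2-D1 and H2-K1 are similar in sequence, so their counts may share reads.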
